A study of Homo sapiens with 6 samples.

Results

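The endoplasmic reticulum (ER) unfolded protein response and the chaperones of the secretory pathway were examined in HepG2 cells with and without overexpression of a Flag-tagged open reading frame. The 36 genes were taken from a list of symbols that covers the ATF6 and IRE1 sensors, ER chaperones, disulfide isomerases, factors of ER-associated degradation and the translocon. The 36 symbols were matched to the Ensembl identifiers of the table, and they are 36 of its 20422 genes. Measured values played no part in that match, but the list was chosen with earlier results of these data known. After removal of genes with too few counts, 35 of the 36 were among the 12386 genes tested, and DERL3 was not.

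HepG2 is an established human hepatocellular carcinoma line. RNA-Seq was performed on 3 libraries of control cells that received the vector (NC) and 3 libraries of cells that received a construct (ORF-Flag). The construct holds the open reading frame of the lncRNA ASH1L-AS1, which encodes the microprotein APPLE, fused to a Flag tag. In the study it is named 5′-UTR-ORF-Flag, a name that includes the 5′ untranslated region. The sample labels describe plasmid transfection, whereas the study's methods describe stable lines made with lentiviral vectors and selected with puromycin, so both groups carry a vector and the way of delivery is given in both forms. Neither source states the promoter of the construct or whether the libraries of a group came from separate cultures, so the p-values measure the spread between these libraries, which may be technical. Library totals were 20081203, 24907524 and 30088457 counts in NC 1, 2 and 3, and 26866148, 17494668 and 27015836 in ORF-Flag 1, 2 and 3. Levels are given in CPM, that is counts divided by library size with TMM factors, and TMM is a method that corrects library totals for differences in composition. Hepatocyte markers were abundant in both groups, with mean ALB levels of 7038 ± 280.5 CPM in NC and 7436 ± 148 CPM in ORF-Flag (SD, n = 3). AFP, a fetal liver protein kept in HepG2, stood at 731 ± 22.0 and 747 ± 12.5 CPM (SD, n = 3). TTR was low for a hepatocyte gene, at 5.90 CPM in NC and 6.11 CPM in ORF-Flag. Of the 10 hepatocyte and HepG2 markers, 2 rose in ORF-Flag, APOA2 and FGB, with log2 fold changes of 0.16 and 0.14. Their edgeR adjusted p was 0.0092 and 0.023, and of all tested genes 4.45% were called in either direction. The uncalled markers went both ways. ALB, AFP, TTR and SERPINA1 stood at 0.08, 0.03, 0.04 and 0.09 on the log2 scale, and APOA1, APOB, HNF4A and TF at -0.04, -0.07, -0.05 and -0.01. In edgeR APOB had an unadjusted p of 0.041 (adjusted p = 0.24). The APOA2 call was lost without NC replicate 2 (0.065) and without ORF-Flag replicates 2 (0.051) and 3 (0.076), and that of FGB was kept only without NC replicate 3, with 0.062 and 0.093 without NC replicates 1 and 2 and 0.12, 0.081 and 0.065 without ORF-Flag replicates 1, 2 and 3. The leukocyte marker PTPRC and the endothelial marker KDR had 0 counts in all 6 libraries, and the fibroblast collagens COL1A1, COL1A2 and COL3A1 had at most 3 counts in any library. The summed fibroblast markers lay between 0.574 and 1.04 CPM, mostly from PDGFRB (9 to 26 counts, log2 fold change -0.41, adjusted p = 0.54). The summed leukocyte markers lay between 38.1 and 43.1 CPM, mostly from CD68, and the summed endothelial markers between 3.88 and 6.07 CPM, mostly from PECAM1. PECAM1 was low but higher in all 3 ORF-Flag libraries than in any NC library, at a mean of 4.36 against 5.70 CPM, with a log2 fold change of 0.39 (unadjusted p = 0.0069, adjusted p = 0.096).

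The unfolded protein response adjusts the folding capacity of the ER to the load of proteins that enter it. IRE1, encoded by ERN1, is a kinase and endoribonuclease that splices the XBP1 mRNA, ATF6 is a membrane-bound transcription factor released by proteolysis in the Golgi apparatus, and PERK attenuates translation. Their targets are chaperones, isomerases and degradation factors, and hepatocytes, which secrete most plasma proteins, express these genes at high levels. Gene counts do not show the splicing of XBP1, the cleavage of ATF6 or the phosphorylation of PERK, so only the mRNA levels are described here. In whole-culture RNA, fewer cells of a type and less RNA per cell cannot be told apart.

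Promoters of such genes are known for the ER stress response element (ERSE), the site through which ATF6, XBP1 and the factor NF-Y act. The windows from 250 bases before to 50 bases after each start site (RefSeq, GRCh38.p14) were searched on both strands, and 33 of the 36 members had an entry; PDIA3, DERL1 and DERL3 had none. ERSE was searched as CCAAT, then 9 bases of any kind, then CCACG. ERSE-II was searched as ATTGG, then 1 base, then CCACG. UPRE, an element bound by ATF6 and XBP1 in vitro, was searched as TGACGTGG or TGACGTGA. ERSE matched in 8 of the 33 members (24.2%), CALR, CANX, CRELD2, ERO1B, HSP90B1, HSPA5, PDIA6 and XBP1, and in 21 of the 15342 genes of the table with an entry (0.137%). ERSE-II matched in HERPUD1, HYOU1 and SDF2L1, 3 of 33 members, and in 15 of the 15342 genes (0.0978%). UPRE matched in DNAJC10 and HYOU1 and in 259 of the 15342 genes (1.69%), and the match in HYOU1 overlapped an ERSE-II match. The matches of the members described most closely are shown here, each 5′ to 3′ on its own strand with the fixed bases of the motif in capitals.
HSPA5 ERSE: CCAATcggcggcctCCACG
XBP1 ERSE: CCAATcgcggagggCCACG
CALR ERSE: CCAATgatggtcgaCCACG
CRELD2 ERSE: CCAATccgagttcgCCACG
SDF2L1 ERSE-II: ATTGGtCCACG
HERPUD1 ERSE-II: ATTGGgCCACG
HYOU1 UPRE: TGACGTGG
In HSPA5 the match lies at chr9:125241391-125241409 and in XBP1 at chr22:28800603-28800621, both on the minus strand, which is the strand of these genes. In CALR it lies at chr19:12938384-12938402 and in CRELD2 at chr22:49918554-49918572, on the minus strand while the genes run on the plus strand. The match of SDF2L1 is at chr22:21642114-21642124 on the minus strand, that of HERPUD1 at chr16:56932025-56932035 on the plus strand, and the UPRE match of HYOU1 at chr11:119057386-119057393 on the minus strand. Each of these lies upstream of the start site that the window is built on. A match describes these letters only and does not show that a factor binds there.

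To ask how the members responded to the open reading frame, ORF-Flag was compared with NC in edgeR's quasi-likelihood test over all 12386 genes. Of the 35 tested members, 2 passed an adjusted p of 0.05, ATF6B and CRELD2, and both fell in ORF-Flag. Over all tested genes 4.45% passed in either direction (551 genes), 1.98% fell (245) and 2.47% rose (306), while of the members 5.71% fell and 0 rose. DESeq2, limma-trend and limma-voom called 3 of the 35 members each, those 2 and CALR, and 428, 594 and 527 of the 12386 genes. The count was 5 without NC replicate 3 and 1 without ORF-Flag replicate 3. The count over all genes was 459, 267 and 1058 without NC replicates 1, 2 and 3, and 300, 278 and 199 without ORF-Flag replicates 1, 2 and 3. At an unadjusted p below 0.05 there were 8 members (22.9%), 4 higher and 4 lower, and 2293 of all tested genes (18.5%). A rule that asks for more than 1.2-fold and for an unadjusted p below 0.05 took 3 members, ATF6B, ERN1 and CREB3L3, and 4.54% of all genes.
Most members differed little between the groups. Of the 35, 17 were higher and 18 lower in ORF-Flag, their median on the log2 scale was -0.00, and that of all tested genes was also -0.00. The median size of the difference, without its sign, was 0.04 in members and 0.07 in all genes. The 95% interval lay within 1.2-fold in either direction for 30 of 35 members, or 85.7%, and for 60.2% of all genes. Among those with a mean of at least 20 CPM, a limit chosen after seeing the data, the shares were 90.6% of 32 members and 90.2% of 6802 genes. The 3 libraries of ORF-Flag lay all above or all below the 3 of NC in 14 of the 35 members, 7 in each direction, or 40.0%, against 22.4% of all tested genes, while 5.71% and 4.45% were called. At 20 CPM or more this was 12 of 32 members, or 37.5%, against 26.4%, while 6.25% and 6.34% were called.

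**Figure D1:**
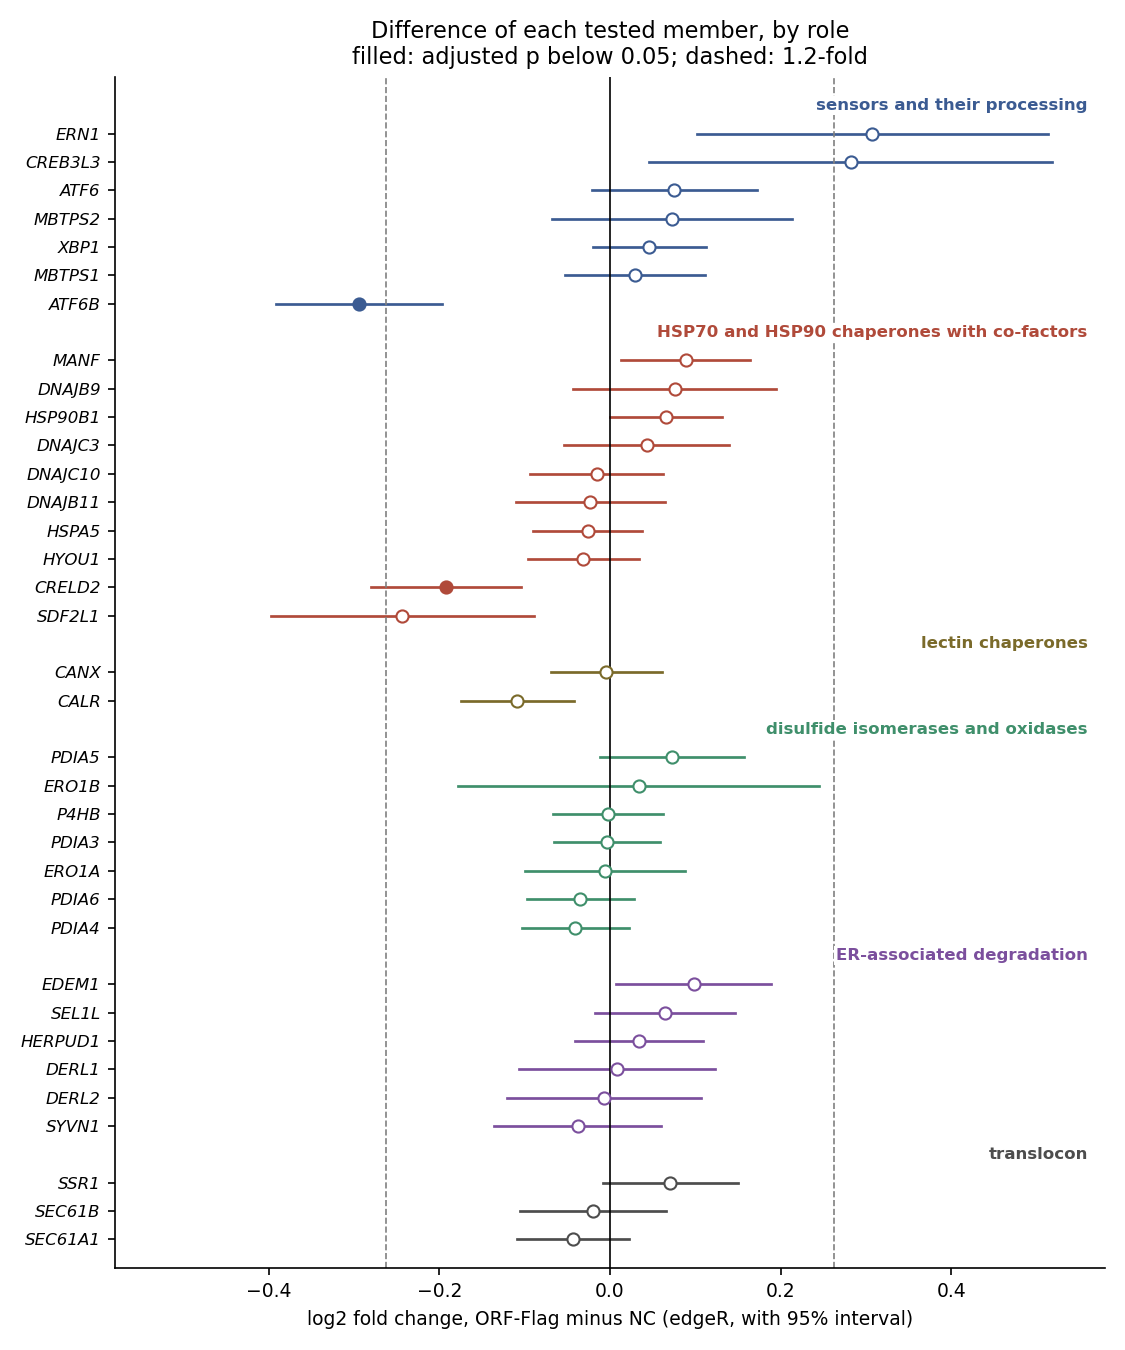
Log2 fold change of each of the 35 tested members, ORF-Flag minus NC, by role. Points are edgeR estimates from 3 libraries a group, lines are 95% intervals, dashed lines mark 1.2-fold, and the filled points, ATF6B at -0.29 and CRELD2 at -0.19, have an adjusted p below 0.05.

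Among the 7 sensors and their processing factors, ATF6B fell and the other 6 had higher estimates in ORF-Flag without passing the test. The call is 14.3% of this role, against 4.45% of all tested genes. ATF6B (ENSG00000213676.13) encodes a paralog of ATF6 that is held in the ER membrane in the same way and is the weaker activator. Its level was 66.2, 64.2 and 63.2 CPM in NC 1, 2 and 3 and 53.6, 54.6 and 49.9 CPM in ORF-Flag 1, 2 and 3. All ORF-Flag libraries lay below all NC libraries, with ORF-Flag 3 the lowest. The log2 fold change was -0.29 (standard error, SE, 0.05, adjusted p = 0.00044 in edgeR), a change of -18.4% with a 95% interval from -23.8% to -12.8%. The call held in each of 16 other fits, with an adjusted p between 3.3e-07 and 0.010. ATF6B is among the genes that the study took from these libraries for qPCR, so its choice there is no independent evidence of the direction. The study's main text gives no result for ATF6B and describes that qPCR as showing upregulation of genes enriched in MAPK signaling. The gene lies at chr6:32115264-32128253 on the minus strand of GRCh38 (GENCODE release 29), and its exons overlap those of TNXB, a matrix protein gene, and of a processed transcript on the same strand over 9.92% of their bases. Of all stretches of 31 bases in its longest transcript, 11.6% are found in a transcript of another gene as well, so a share of its reads cannot be assigned with certainty. TNXB was at most 0.815 CPM in any library and was 0.31 higher on the log2 scale in ORF-Flag (adjusted p = 0.68).
ATF6 itself, the sensor whose released fragment activates chaperone genes, stood at 49.0, 51.4 and 50.8 CPM in NC and at 51.6, 54.1 and 53.9 CPM in ORF-Flag. ORF-Flag 1 lay only just above NC 2, and the log2 fold change was 0.08 (SE 0.05, 95% interval -0.02 to 0.17, adjusted p = 0.42). ERN1 was the lowest sensor by CPM together with CREB3L3, at 7.32, 7.21 and 7.85 CPM in NC and 9.20, 9.13 and 9.41 CPM in ORF-Flag. Its ORF-Flag libraries all lay above its NC libraries, by a log2 fold change of 0.31 (SE 0.10, 95% interval 0.10 to 0.51), the highest estimate among members, and the adjusted p of 0.080 missed the threshold. In 16 other fits that p lay between 0.055 and 0.25. XBP1, the transcription factor made active by IRE1 splicing, was measured at 429.6, 454 and 449 CPM in NC and 460.3, 461 and 455 CPM in ORF-Flag. Its log2 fold change was 0.05 (SE 0.03, 95% interval -0.02 to 0.11, adjusted p = 0.48), and the upper bound of the difference in total XBP1 mRNA was 8.13%.
CREB3L3, a liver transcription factor released by the same proteases as ATF6, had 5.89, 7.85 and 7.92 CPM in NC and 8.68, 9.42 and 8.59 CPM in ORF-Flag. NC 1 was low and set much of the spread, and the log2 fold change was 0.28 (SE 0.11, adjusted p = 0.18), with values between 0.17 and 0.35 in the other fits. MBTPS1, the site-1 protease that makes the first cut in ATF6, had 127, 142 and 134 CPM in NC and 140.0, 135 and 136 CPM in ORF-Flag, which gives a log2 fold change of 0.03 (95% interval -0.05 to 0.11, adjusted p = 0.77). MBTPS2, the site-2 protease that makes the next cut inside the membrane, had 19.9, 18.9 and 20.4 CPM in NC and 19.7, 21.1 and 21.6 CPM in ORF-Flag, which gives a log2 fold change of 0.07 (95% interval -0.07 to 0.21, adjusted p = 0.63). The groups overlapped in both proteases. Of the exon bases of MBTPS2, 13.4% overlap other genes on the same strand. In 16 other fits the log2 fold change lay between -0.01 and 0.07 for MBTPS1 and between 0.04 and 0.11 for MBTPS2.

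**Figure D2:**
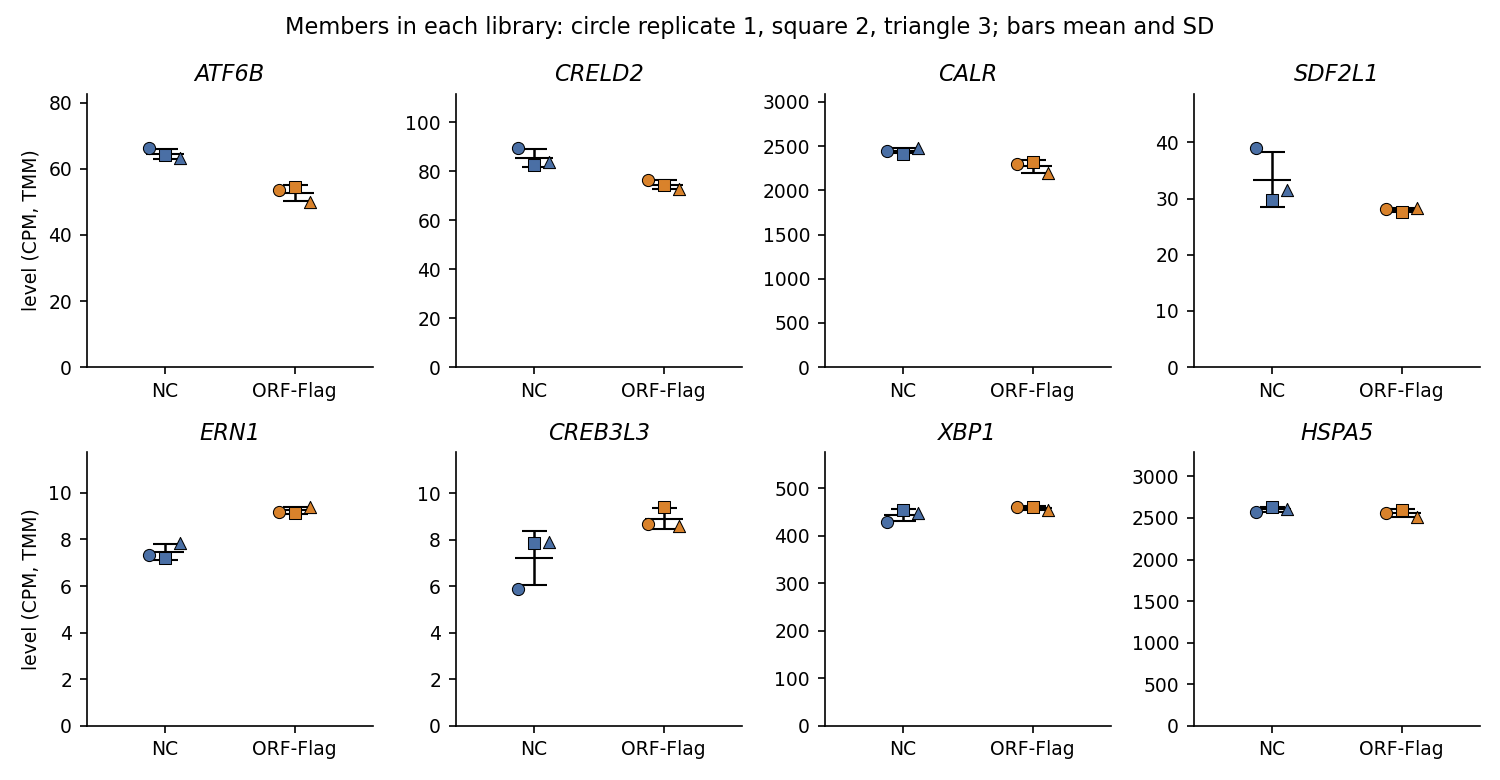
Level in CPM of 8 members in each library, with replicate 1 as a circle, 2 as a square and 3 as a triangle, and with the mean and SD of 3 libraries. ATF6B, CRELD2, CALR and SDF2L1 lie lower in all 3 ORF-Flag libraries than in any NC library, ERN1 and CREB3L3 lie higher, XBP1 lies higher by a small margin, and the groups of HSPA5 overlap.

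Of the 10 chaperones of the HSP70 and HSP90 systems and their co-factors, CRELD2 fell, and 9 did not pass the test, while 4.45% of all tested genes did. CRELD2 (ENSG00000184164.15) encodes an ER protein with EGF-like domains that is induced by ER stress. It was measured at 89.4, 82.7 and 83.7 CPM in NC and 76.4, 74.2 and 72.9 CPM in ORF-Flag, so the groups did not overlap and NC 1 was the highest. The log2 fold change was -0.19 (SE 0.04, adjusted p = 0.0094 in edgeR), a change of -12.5% with a 95% interval from -17.6% to -6.97%. Without ORF-Flag replicate 3 the call was lost (adjusted p = 0.078), and it held in the 15 other fits, where the adjusted p was as low as 0.00082. ALG12, a mannosyltransferase gene of the N-glycan precursor that was chosen after its values were seen, lies beside CRELD2 in a head-to-head arrangement on chromosome 22. The exons of both genes overlap on opposite strands over 3.25% of the CRELD2 exon bases, and the use of strand in the counting is not stated. ALG12 had 45.7, 41.8 and 41.3 CPM in NC and 38.5, 37.1 and 36.2 CPM in ORF-Flag, and it fell by 0.20 on the log2 scale (SE 0.05, adjusted p = 0.035 in edgeR). DESeq2 gave ALG12 an adjusted p of 0.055, within a range of 0.012 to 0.18 over 16 other fits. Of the fits with a library left out, only that without NC replicate 3 kept the call, and the p was 0.12 and 0.082 without NC replicates 1 and 2 and 0.055, 0.11 and 0.18 without ORF-Flag replicates 1, 2 and 3. By the RefSeq start sites, the ERSE match of CRELD2 lies between the starts of both genes. It lies from 62 to 80 bases upstream of CRELD2 and from 116 to 134 bases upstream of ALG12. In the GENCODE model used for the overlap, CRELD2 starts at chr22:49918167, so the match at chr22:49918554-49918572 lies inside that model.
HSPA5 encodes BiP, the ER HSP70 chaperone whose release from the sensors marks ER stress, and it was the most abundant of these genes per exon length. Its level was 2573, 2635 and 2606 CPM in NC and 2566, 2599 and 2509 CPM in ORF-Flag, and the groups overlapped. The log2 fold change was -0.03 (SE 0.03, adjusted p = 0.72), with a 95% interval from -6.06% to 2.64%. HSP90B1, the ER member of the HSP90 family, was 0.07 higher on the log2 scale (95% interval -0.00 to 0.13, adjusted p = 0.27), with no overlap between the groups. Of the 31-base stretches of HSP90B1, 23.3% are shared with other transcripts, among them its pseudogenes, and of those of HSPA5 18.8% are shared, so their counts carry some uncertainty. For DNAJB11 the share is 22.8%. HYOU1, an HSP110-type exchange factor for BiP, differed by -0.03 on the log2 scale (95% interval -0.10 to 0.03). In 16 other fits the log2 fold changes of HSPA5 and HYOU1 lay between -0.04 and -0.01, and that of HSP90B1 between 0.04 and 0.09.
SDF2L1, a stress-induced partner of the BiP co-chaperone DNAJB11, had the largest difference of this role, at 39.0, 29.7 and 31.5 CPM in NC and 28.2, 27.6 and 28.3 CPM in ORF-Flag. NC 1 stood apart from the other libraries, while NC 2 lay close to ORF-Flag 3. The log2 fold change was -0.24 (SE 0.07, 95% interval -0.40 to -0.09, adjusted p = 0.063), and 5 of 16 other fits called it. Without NC replicate 1 the log2 fold change was -0.13 (adjusted p = 0.29), so the size of the difference rests in large part on that library. SDF2L1 was called without NC replicate 2 (adjusted p = 0.030), without NC replicate 3 (adjusted p = 0.015), with no filter on low counts (adjusted p = 0.0046) and in the 2 fits with a replicate block (adjusted p = 0.030 and 0.048), and over the 16 fits the adjusted p lay between 0.0046 and 0.29. MANF, a small secreted protein that binds BiP, was 0.09 higher on the log2 scale (95% interval 0.01 to 0.16, adjusted p = 0.19), and in 16 other fits the adjusted p lay between 0.024 and 0.45. MANF was called only without NC replicate 3 (log2 fold change 0.12, adjusted p = 0.024), and it stood at 0.05 on the log2 scale when NC replicate 1 was left out (adjusted p = 0.45). The 4 co-chaperones with a J domain, DNAJB9, DNAJB11, DNAJC3 and DNAJC10, which stimulate the ATPase of BiP and in DNAJC10 also reduce disulfides, had log2 fold changes of 0.08, -0.02, 0.04 and -0.02. Their groups overlapped, and their 95% intervals all lay between -0.11 and 0.19. Single libraries carried much of these values, in both directions. DNAJB9 stood at 0.01 without NC replicate 1, at 0.03 without ORF-Flag replicate 2 and at 0.12 without ORF-Flag replicate 3. DNAJC3 stood at -0.00 without NC replicate 1, at 0.02 without ORF-Flag replicate 1 and at 0.09 without NC replicate 3. DNAJB11 stood at 0.03 without ORF-Flag replicate 3 and at -0.06 without ORF-Flag replicate 2. DNAJC10 stood at 0.01 without NC replicate 3, at -0.06 without NC replicate 1 and at -0.08 with GC and length trends removed.

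The lectin chaperones retain glycoproteins that still carry a terminal glucose until they are folded, CALR as a soluble protein and CANX as a membrane protein. CALR had the highest level per exon length of all members, and it was measured at 2449.5, 2416 and 2476 CPM in NC and 2293, 2325 and 2192 CPM in ORF-Flag. Each ORF-Flag library lay below each NC library, with ORF-Flag 3 the lowest. The log2 fold change was -0.11 (SE 0.03, 95% interval -0.18 to -0.04), and the edgeR adjusted p of 0.052 just missed the threshold. Under 9 of 16 other fits CALR passed, 8 of 10 that use all libraries, with DESeq2 at an adjusted p of 0.013 and limma-trend at 0.049, and 1 of 6 with a library left out, that without NC replicate 3 (0.046). The other 5 did not call it, with 0.070 and 0.10 without NC replicates 1 and 2 and 0.099, 0.095 and 0.31 without ORF-Flag replicates 1, 2 and 3, the last at a log2 fold change of -0.08. The range over all 16 was from 0.013 to 0.31. Of the 31-base stretches of CALR, 11.6% occur in transcripts of other genes, among them an antisense gene. CANX was measured at 1407, 1445 and 1479 CPM in NC and 1455, 1445 and 1418 CPM in ORF-Flag, with a 95% interval of its difference from -4.72% to 4.29%. Neither of these 2 genes passed the edgeR test at an adjusted p of 0.05, and 1 did at an unadjusted p of 0.05. Of all tested genes 4.45% and 18.5% did so.

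None of the 7 disulfide isomerases and oxidases passed the edgeR test, 0 had an unadjusted p below 0.05, and DESeq2, limma-trend and limma-voom each called 0. Over all tested genes 4.45% passed the edgeR test and 18.5% had an unadjusted p below 0.05. P4HB, the classical protein disulfide isomerase and also a subunit of the collagen prolyl hydroxylase, had the highest level of the role per exon length. It was measured at 2001, 1963 and 1943 CPM in NC and 2003, 1971 and 1924 CPM in ORF-Flag, which gives a log2 fold change of -0.00 (SE 0.03, adjusted p = 0.98) with a 95% interval from -4.53% to 4.40%. PDIA3, the isomerase that works on glycoproteins bound to the lectin chaperones, varied least, between 1137 and 1153 CPM over all 6 libraries, and its interval ran from -4.46% to 4.16%. However, 43.3% of the 31-base stretches of PDIA3 occur in other transcripts, among them a pseudogene, and 36.8% of those of PDIA6 occur in the overlapping gene ATP6V1C2. Of those of P4HB, 18.5% occur in an antisense gene. PDIA4 and PDIA6, further isomerases with thioredoxin-like domains, had log2 fold changes of -0.04 (95% interval -0.10 to 0.02) and -0.03 (95% interval -0.10 to 0.03), and in both all ORF-Flag libraries lay below all NC libraries by a small margin. PDIA5 was 0.07 higher on the log2 scale (95% interval -0.01 to 0.16), and 14.3% of its exon bases overlap other genes on the same strand. ERO1A and ERO1B, the oxidases that return electrons from the isomerases to oxygen, had log2 fold changes of -0.01 and 0.03, and the interval of ERO1B, at a mean of 8.58 CPM in NC, was wider, from -0.18 to 0.25.

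In ER-associated degradation, misfolded proteins are recognised, moved back across the membrane and ubiquitinated. None of its 6 tested members passed the edgeR test, against 4.45% of all tested genes. An unadjusted p below 0.05 was found in 1 (16.7%, against 18.5% of all tested genes), and DESeq2, limma-trend and limma-voom each called 0. HERPUD1, a ubiquitin-like membrane protein strongly induced by ER stress, had the highest level of the role per exon length. It was measured at 313, 342 and 321 CPM in NC and 337, 341 and 321 CPM in ORF-Flag, with overlapping groups and a log2 fold change of 0.03 (SE 0.04, 95% interval -0.04 to 0.11, adjusted p = 0.69). EDEM1, which recognises glycoproteins for disposal through their mannose residues, had the highest estimate of the role. Its level was 56.1, 56.7 and 56.6 CPM in NC and 59.9, 59.7 and 61.7 CPM in ORF-Flag. Its ORF-Flag libraries all lay above its NC libraries, by a log2 fold change of 0.10 (SE 0.04, 95% interval 0.01 to 0.19), and the adjusted p was 0.23, with 0.19 to 0.52 in other fits. SEL1L and SYVN1, which form the ubiquitin ligase complex of the membrane, had log2 fold changes of 0.06 and -0.04, and DERL1 and DERL2, derlins that help proteins leave the ER, had 0.01 and -0.01. The 95% intervals of these 4 all lay between -0.14 and 0.15. DERL3, the derlin described in secretory tissues, had 5 counts in NC 3 and 0 in the other 5 libraries, where 3 counts equal between 0.111 and 0.171 CPM, so no difference could be measured at this depth. On the opposite strand 77.0% of its exon bases overlap the gene SMARCB1, and how the counting treated such reads is not stated.

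The translocon carries new chains into the ER. Of its 3 members, SEC61B and SEC61A1 are subunits of the channel and SSR1 belongs to the associated TRAP complex. None passed the edgeR test, with 0 at an unadjusted p below 0.05, against 4.45% and 18.5% of all tested genes. DESeq2, limma-trend and limma-voom called 0. SEC61B was measured at 111, 104 and 99.3 CPM in NC and 105, 103 and 101 CPM in ORF-Flag, which gives a log2 fold change of -0.02 (SE 0.04, 95% interval -0.11 to 0.07, adjusted p = 0.86). SEC61A1 differed by -0.04 on the log2 scale (95% interval -0.11 to 0.02) and SSR1 by 0.07 (95% interval -0.01 to 0.15). The SEC61B groups overlapped, and NC 1 held the highest SEC61B level and the lowest SSR1 level of all libraries.

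Levels between genes were compared per kilobase of exon, as CPM divided by exon length (FPKM), with the union of GENCODE exons as the length. CALR led with 902 ± 11.1 FPKM in NC and 836 ± 25.5 FPKM in ORF-Flag (SD, n = 3). HSPA5 followed with 667 ± 7.96 FPKM and HSP90B1 with 502 ± 14.2 FPKM in NC (SD, n = 3). P4HB, PDIA4, PDIA6, PDIA3 and CANX came next, at 371, 352, 282, 270.2 and 232 FPKM in NC. XBP1 stood far above the other sensors, with 147 ± 4.24 FPKM (SD, n = 3) in NC, whereas ATF6B had 17.8 FPKM, MBTPS1 13.1, ATF6 6.39, CREB3L3 2.69, MBTPS2 2.21 and ERN1 0.687 FPKM in NC. ATF6B thus held a higher level per exon length than ATF6 in both groups, with 14.5 and 6.74 FPKM in ORF-Flag. Some neighbours in this order did not differ beyond their spread in NC, such as SEC61B at 88.1 ± 4.94 and MANF at 86.0 ± 4.37 FPKM, or SEC61A1 at 63.2 ± 1.15 and HERPUD1 at 63.1 ± 2.91 FPKM (SD, n = 3). The ligase subunits SEL1L and SYVN1 and the derlins DERL2 and DERL1 were lower, at 12.6, 9.52, 7.79 and 4.96 FPKM in NC.

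**Figure D3:**
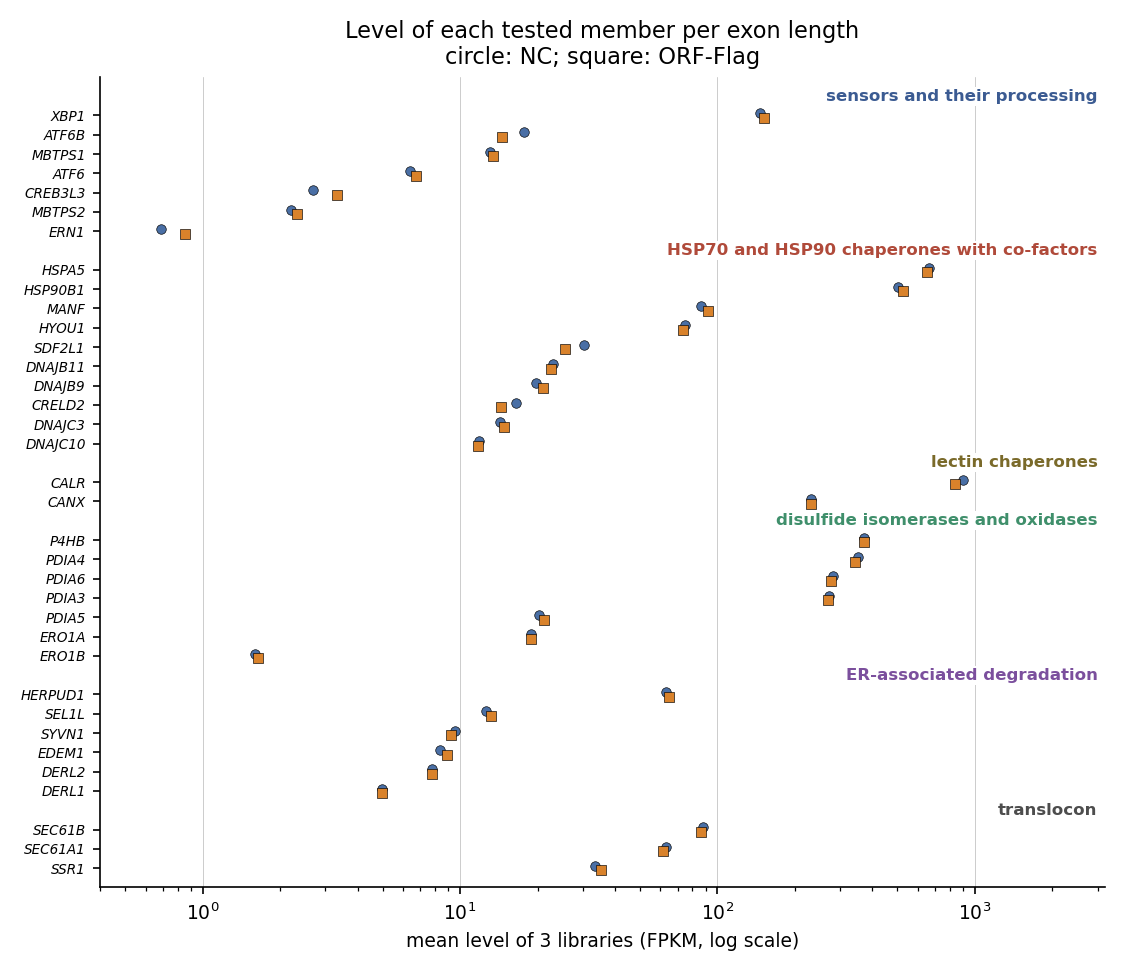
Mean level of each of the 35 tested members in FPKM on a log axis, by role, with circles for NC and squares for ORF-Flag (3 libraries each). Chaperones and isomerases hold the highest levels, up to CALR at 902 in NC, while ERN1 is lowest at 0.687 in NC.

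Together the 36 members took 1.80%, 1.82% and 1.82% of all counts in NC 1, 2 and 3 and 1.80%, 1.81% and 1.76% in ORF-Flag 1, 2 and 3. The ranges overlapped, and ORF-Flag 3 was the lowest. The HSP70 and HSP90 chaperones with co-factors took 0.640 ± 0.00826% in NC and 0.643 ± 0.00923% in ORF-Flag (SD, n = 3). The lectin chaperones took 0.388%, 0.387% and 0.393% in NC and 0.375%, 0.375% and 0.361% in ORF-Flag, so this role, carried by CALR, was lower in each ORF-Flag library. The disulfide isomerases and oxidases took 0.567 ± 0.00371% and 0.558 ± 0.00667% (SD, n = 3). Among the libraries, NC 1 held the lowest level of all 6 in 17 of 35 members, or 48.6%, against 23.9% of all tested genes. ORF-Flag 3 held the lowest in 9 members, or 25.7%, against 16.2% of all tested genes. NC 1 also held the highest level in 7 members, among them ATF6B, CRELD2 and SDF2L1, which is 20% of members against 23.6% of all tested genes, and ORF-Flag 2 was highest in 7 as well. When NC replicate 1 was left out, 2 of 35 members and 459 of 12531 genes were called. Small differences of members moved both ways on the log2 scale. Those of DNAJB9 (0.08 to 0.01), SSR1 (0.07 to 0.02), XBP1 (0.05 to 0.02) and HERPUD1 (0.03 to 0.01) shrank, and MBTPS1 moved from 0.03 to -0.01. Others grew, among them ERO1A (-0.01 to -0.06), DERL2 (-0.01 to -0.06), DNAJC10 (-0.02 to -0.06), DNAJB11 (-0.02 to -0.05) and CANX (-0.00 to -0.02).

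**Figure D4:**
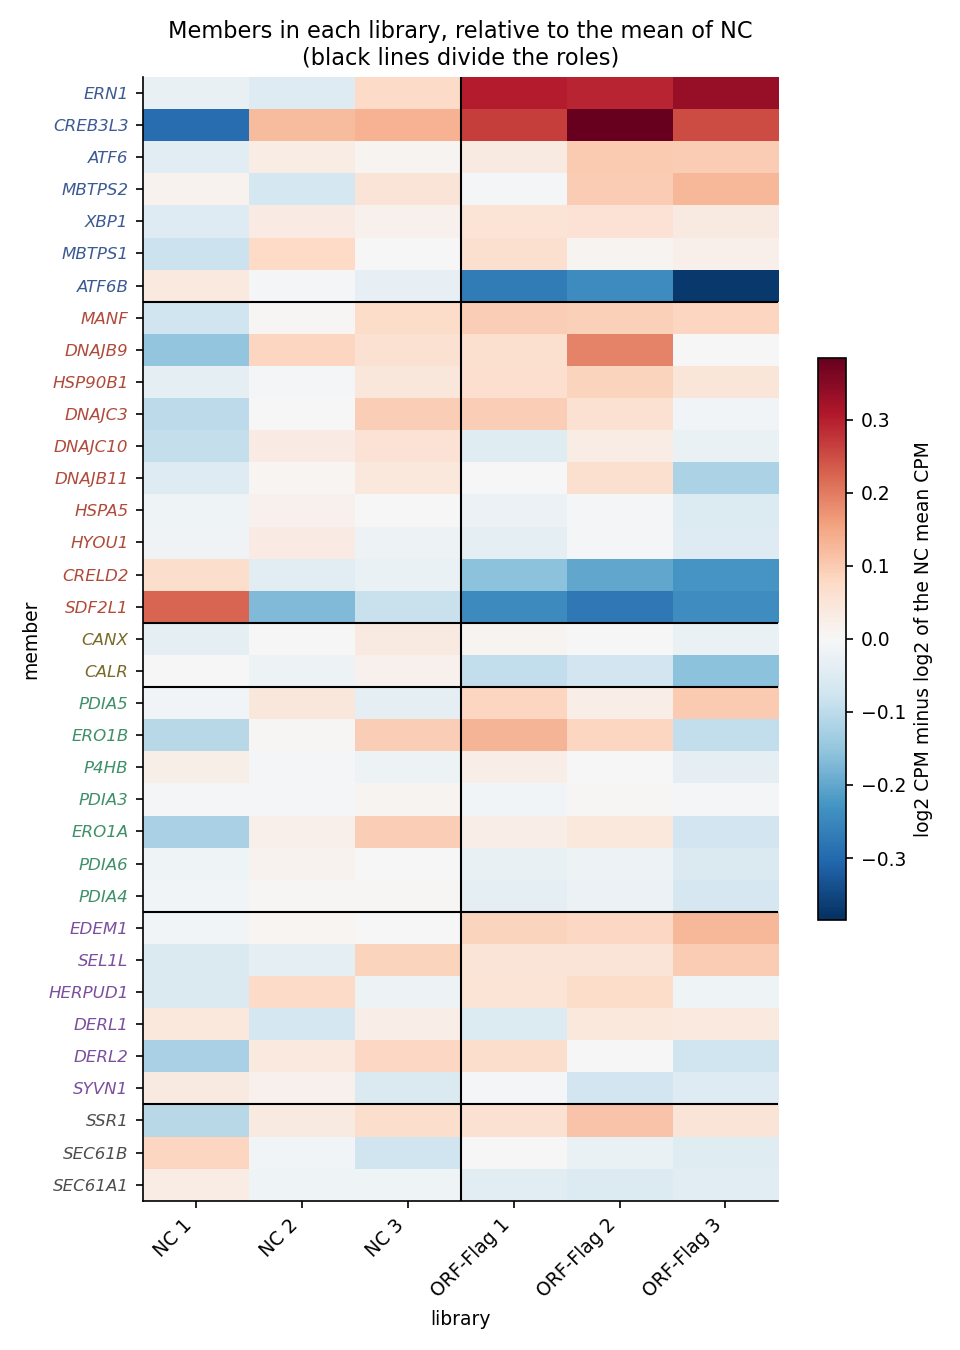
Level of each tested member in each library as log2 CPM minus the log2 of the mean CPM in NC, with members in rows by role and the 6 libraries in columns. ATF6B is low in all 3 ORF-Flag libraries, and NC 1 is the lowest library for 17 of the 35 members.

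Set against the promoter motifs, the 11 members with an ERSE or ERSE-II match had a median of -0.03 on the log2 scale, 4 being higher in ORF-Flag and 7 lower, and 1 was called, CRELD2. The 22 members with a promoter entry and no such match had a median of 0.04, 12 being higher and 10 lower, and 1 was called, ATF6B. The matched genes thus ranged from HSP90B1 at 0.07 to SDF2L1 at -0.24 on the log2 scale. These medians describe the lists, and all tested genes had a median of -0.00. The 1 call in each list is 9.09% and 4.55% of its genes, against 4.45% of all tested genes.

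To place the members in the wider early secretory pathway, 7 lists of other genes were examined with the same fit, 124 genes of which 122 were tested (GPX8 and CREB3L1 were not). In edgeR 10 of the 122 passed an adjusted p of 0.05, or 8.20%, with 7 higher and 3 lower. The share was 4.45% of all tested genes and 6.34% of those with a mean of at least 20 CPM, a cut not applied to the 122. The median log2 fold change of the 122 was 0.02. The count was 5 without NC replicate 2 or without ORF-Flag replicate 1, and 4 without ORF-Flag replicate 2 or without ORF-Flag replicate 3. The rule of more than 1.2-fold with an unadjusted p below 0.05 took 4 of the 122. These lists, like the members, were chosen with earlier results of these data known.
In the PERK arm, 2 of 9 genes rose (22.2%), against 2.47% of all tested genes. PPP1R15A, whose product directs a phosphatase to the translation factor that PERK phosphorylates, was measured at 42.9, 42.5 and 45.2 CPM in NC and 63.9, 61.5 and 61.1 CPM in ORF-Flag. The log2 fold change was 0.51 (SE 0.05, adjusted p = 1.2e-07 in edgeR). DDIT3, which encodes the stress transcription factor CHOP, was measured at 17.6, 17.1 and 17.8 CPM in NC and 20.4, 24.2 and 22.9 CPM in ORF-Flag, which gives a log2 fold change of 0.36 (SE 0.07, adjusted p = 0.0047 in edgeR). The groups did not overlap in either gene, and both were called in each of 16 other fits. EIF2AK3, the gene of PERK itself, and ATF4, the factor translated when PERK is active, had log2 fold changes of 0.05 (95% interval -0.03 to 0.13) and 0.05 (95% interval -0.02 to 0.12) and were not called. The other 5 uncalled genes of this arm had log2 fold changes in both directions, EIF2S1 at 0.02, PPP1R15B at 0.01, TRIB3 at 0.04, ASNS at -0.07 and CHAC1 at -0.22 (95% interval -1.04 to 0.60).
In signal peptide targeting and cleavage, 3 of 21 genes rose, SSR2 of the TRAP complex, the translocating-chain protein TRAM1 and the signal recognition particle subunit SRP19, with log2 fold changes of 0.12, 0.12 and 0.17 (edgeR adjusted p = 0.046, 0.023 and 0.044). Of the list 17 genes had higher estimates (81.0%, against 49.5% of all tested genes), with a median of 0.06. For this list and those below, 2.47% of all tested genes rose and 1.98% fell. In N-glycan transfer and glucose trimming 1 of 14 genes fell, MOGS, the glucosidase that removes the outermost glucose of the glycan. MOGS was measured at 137, 137 and 126 CPM in NC and 103, 112 and 98.1 CPM in ORF-Flag, which gives a log2 fold change of -0.36 (SE 0.05, adjusted p = 1.9e-05 in edgeR), and was called in each of 16 other fits. Among 33 tested isomerases, co-chaperones and KDEL receptors, the isomerases PDIA2 and FKBP10 fell by 0.27 and 0.13 on the log2 scale (edgeR adjusted p = 0.0013 and 0.033), and the HSP70 family member HSPA13 rose by 0.17 (adjusted p = 0.031 in edgeR). In COPII export 1 of 13 genes rose, MCFD2, a partner of the cargo receptor LMAN1, by 0.15 (adjusted p = 0.022 in edgeR). None of the 22 further degradation factors passed the edgeR test, with 3 at an unadjusted p below 0.05, and none of the 10 tested other regulators did, with 0. The shares over all tested genes were 4.45% and 18.5%. DESeq2, limma-trend and limma-voom called 0 in both lists. PDIA2, like MOGS, PPP1R15A and DDIT3, was called in each of the 6 fits that left out a library. The other 6 calls, of SSR2, TRAM1, SRP19, HSPA13, FKBP10 and MCFD2, were lost in some fits with a library left out, and some also depended on the method. Their log2 fold changes kept their direction in these 6 fits. They lay at 0.10 to 0.13 for SSR2, 0.12 to 0.13 for TRAM1 and 0.14 to 0.21 for SRP19. For HSPA13 they lay at 0.13 to 0.20, for FKBP10 at -0.16 to -0.11 and for MCFD2 at 0.12 to 0.20. Whether the smaller number of libraries alone ended these calls was not tested. SRP19 was not called by DESeq2 (adjusted p = 0.071), limma-voom (0.053) or with library sizes only (0.051), SSR2 not with library sizes only (0.053), and FKBP10 not with GC and length trends removed (0.071). Over all 16 other fits the adjusted p of these 3 lay between 0.0024 and 0.19. All 6 held without NC replicate 3, and none held without ORF-Flag replicate 2 or without ORF-Flag replicate 3. SRP19, HSPA13 and MCFD2 lost theirs without NC replicate 1, all but HSPA13 without NC replicate 2, and all but SRP19 without ORF-Flag replicate 1. For these genes in the order given, the adjusted p was 0.14, 0.10, 0.19, 0.16, 0.13 and 0.081 without ORF-Flag replicate 2 and 0.15, 0.13, 0.19, 0.089, 0.13 and 0.075 without ORF-Flag replicate 3. The lost calls had values of 0.11, 0.088 and 0.054 without NC replicate 1 (SRP19, HSPA13, MCFD2), between 0.11 and 0.19 without NC replicate 2, and between 0.064 and 0.17 without ORF-Flag replicate 1.

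**Figure D5:**
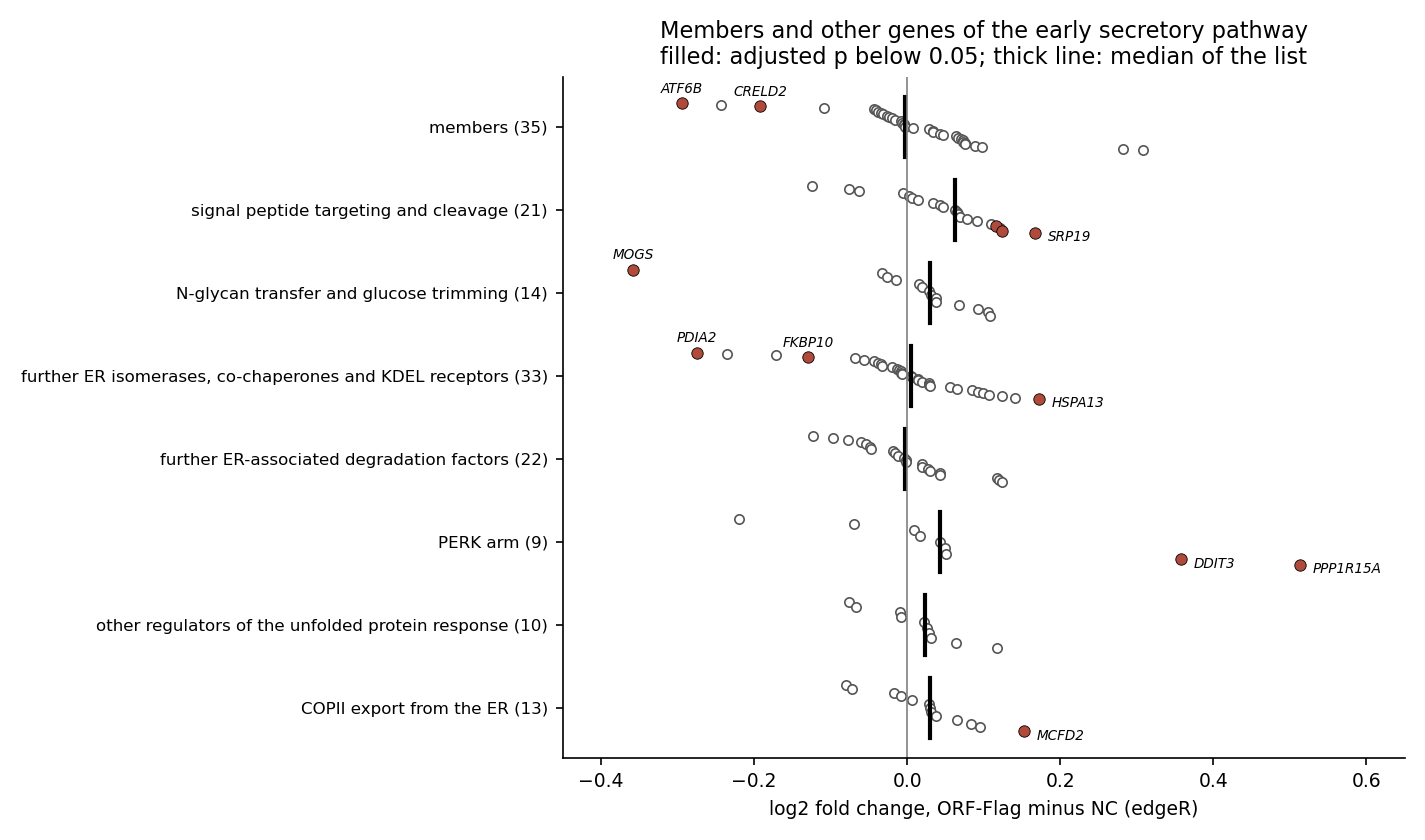
Log2 fold change, ORF-Flag minus NC, of the 35 tested members and of the genes of 7 other lists, with the number tested in parentheses. Filled points have an edgeR adjusted p below 0.05, thick lines are medians, and the largest rise is that of PPP1R15A at 0.51.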

How the data were processed

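The authors deposited 1 table of raw counts, with 20422 Ensembl genes and 6 HepG2 libraries (3 NC, 3 ORF-Flag). The submitters' processing notes name cutadapt 1.11, HISAT2 2.1.0, featureCounts 1.6.0, edgeR and GRCh38, without their settings, so the use of strand, the annotation release and the treatment of reads shared between genes are not given in the sources used here. Poly-A selection or rRNA depletion is not given either. The counts were used as deposited. All rows had a gene identifier, 4055 genes had 0 counts in every library, and the stable part of the identifier gave a symbol for 20421 genes. The members and lists were chosen with earlier results of these data known.

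Groups were compared with edgeR 4.0.16 in R 4.3.3 (filterByExpr, TMM, glmQLFit, glmQLFTest, design of group alone), with Benjamini-Hochberg adjustment over the 12386 genes tested. The study's methods name limma, and limma 3.58.1 was run as an alternative. Standard errors were derived from the quasi-likelihood F statistic, and 95% intervals from its degrees of freedom. TMM factors lay between 0.995 and 1.01, and the common biological coefficient of variation was 0.0389. A count of 3 corresponds to between 0.0997 and 0.171 CPM, and this floor, like the intervals, rests on reads without molecular identifiers. Chi-square per degree of freedom between libraries of a group was between 2.39 and 5.23, so no library looked like a copy of another. The fits were tested on simulated counts.

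Genes were named by a rule: members past an adjusted p of 0.05, all sensors, the member with the highest level per exon length in each role and those with the largest fold in either direction received values in every library, and up to 4 genes past the threshold were named in each other list. ALG12, TNXB, the uncalled genes of the PERK arm and the single markers named were chosen after their values were seen. Exon lengths, overlaps and 31-base stretches come from GENCODE release 29 on GRCh38, and promoter windows from RefSeq on GRCh38.p14. Alternatives were DESeq2 1.42.0, limma-trend, limma-voom, RLE factors, library sizes without TMM, no filter, at least 10 counts in every library, the replicate number as a block, removal of GC and length trends (mgcv 1.9.3) with and without that block, and each library left out. Calls were also counted at a fold change above 1.2 with an unadjusted p below 0.05. Figures were drawn with matplotlib 3.10.9.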

Additional observations from a re-analysis of the deposited data

How the results depend on the processing

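Over 16 other fits, the 35 members gave 560 log2 fold changes, of which 544 kept their direction and side of the threshold or moved across 0 without a call, 15 newly passed it (CALR, SDF2L1 and MANF) and 1 no longer did (CRELD2 without ORF-Flag replicate 3). No called value changed direction. 12 members changed sign under some fit, each with an edgeR log2 fold change of at most 0.06 in size, and 30 members were never called. The number of members called was 2, and it was 4 with no filter on low counts and between 1 and 5 when single libraries were left out. The count over all genes was 551, it was 824 with no filter, 428 with DESeq2 and 818 with GC and length trends removed, and it lay between 199 and 1058 when single libraries were left out. Of the other ER genes 10 were called, 4 under the fold change rule and between 4 and 13 when single libraries were left out. The causes of these shifts were not tested.

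Whether the replicate numbers pair the samples could not be decided from 3 libraries a group. The deviations of NC and ORF-Flag libraries with the same number correlated at 0.067, 0.027 and 0.045. Those with different numbers correlated between -0.078 and 0.030. These correlations are small, and each NC library correlated best with the ORF-Flag library of its own number. With the replicate number as a block, 4 members (ATF6B, CRELD2, CALR at an adjusted p of 0.038 and SDF2L1 at 0.030), 731 genes and 11 other ER genes were called. With GC and length trends removed and the same replicate block, 4 members (CALR at 0.025 and SDF2L1 at 0.048 among them) and 870 genes were called. Over 16 other fits the adjusted p lay between 0.013 and 0.31 for CALR and between 0.0046 and 0.29 for SDF2L1.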
